A study of Mus musculus with 6 samples.

Results

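The 34 genes described here encode the parts of the NF-kB pathway and a set of its known target cytokines, and all 34 were among the 23337 genes counted in sorted mouse mammary basal epithelial cells. They were chosen by gene symbol: 5 subunits of the factor, 8 inhibitors and negative regulators, 4 kinases, 5 adaptors and ubiquitin ligases, 3 receptors, and 9 cytokines and other targets. This choice was made with earlier results of these data known. The samples were 4 pools from mice homozygous for the knockout allele Vimtm1Cba/tm1Cba and 2 pools from Vimwt/wt mice, all 15 weeks old and of the mixed strain 129/Sv X C57BL/6. Each pool held cells of 2 to 3 mice, so a library is an average over animals. The allele is carried in the germ line, so all cell types of the knockout mice carry it, not basal cells alone. Vim encodes vimentin, an intermediate filament protein. Cells were sorted straight from digested glands (passage p0) as live CD45neg, CD31neg, CD24low and CD49fhi cells, and the labels name no further treatment. The work was done as 2 experiments, told apart here only by a date code on each count file. By this code experiment 1 holds knockout 1, knockout 2 and wild type 1. Experiment 2 holds knockout 3, knockout 4 and wild type 2.

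NF-kB is a family of dimeric transcription factors that inhibitory IkB proteins hold in the cytoplasm. Signals from receptors such as those for TNF and interleukin-1 pass through adaptors and ubiquitin ligases to the IKK kinase complex, which marks the IkB proteins for destruction and frees the dimers to enter the nucleus. Several IkB genes and other negative regulators are themselves targets of the factor, which closes a negative feedback loop. In the mammary gland the pathway is known for its role in the growth of milk-producing alveoli downstream of the receptor RANK.

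Total counts ran from 25347967 to 31200622 per library, and all 34 genes were among the 13925 genes that passed the filter on low counts. Vim itself had 92.4, 105, 111 and 111 CPM (counts scaled to library size by TMM) in knockout 1 to 4, against 215 and 241 CPM in wild type 1 and 2, so reads of the targeted gene remained in the knockout libraries. Basal markers such as Krt5 and Krt14 were high in every library, and the 11 basal markers summed to 18453 to 21954 CPM in knockout and 21035 to 21619 CPM in wild-type libraries. The 14 endothelial markers summed to 69.6 to 94.4 CPM in knockout and 113 to 299 CPM in wild-type libraries, with the highest sum in wild type 1. The fibroblast and pericyte markers had no member above 0 in log2 fold change with the experiment as a block (0 of 7 and 0 of 6, medians -0.39 and -0.59). Luminal progenitor markers were above 0 in 0 of 7 (median -0.47), and hormone-sensing luminal markers in 6 of 7 (median 0.39), with none of these called. The 12 leukocyte markers summed to 82.3 to 125 CPM in knockout and 111 to 143 CPM in wild-type libraries, most of it from Cd74, while Ptprc, Cd52, Tyrobp, Fcer1g and Cd3e were at 0 in at least 1 library. The 22 genes that cell dissociation induces summed to 17193 to 22897 CPM in knockout and 18219 to 18662 CPM in wild-type libraries. The part of these cells and of dissociation in the results below was not tested. In such bulk samples, fewer cells of a type and less RNA per cell cannot be told apart.

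The 34 genes together took 0.514, 0.542, 0.667 and 0.685% of the counts in knockout 1 to 4, against 0.378 and 0.518% in wild type 1 and 2. The share was above that of its own experiment's wild-type library in every knockout library, although knockout 1 (0.514%) lay just below wild type 2 (0.518%). Scaled by gene length to TPM, the most abundant transcript was Nfkbia, an IkB inhibitor, at 1518 ± 227 TPM in knockout (SD, n = 4) and 842 ± 176 TPM in wild type (SD, n = 2). Csf3, which encodes the granulocyte colony-stimulating factor G-CSF, followed with 802 ± 275 TPM in knockout and 423 ± 174 TPM in wild type. Csf1, which encodes the macrophage colony-stimulating factor, had 726 ± 47.9 TPM in knockout and 552 ± 232 TPM in wild type. The SDs of Csf3 and Csf1 overlapped, so their order is not resolved by the spread between libraries. Among the subunits, Nfkb2 and Nfkb1 were the most abundant, with 455 and 411 TPM in knockout and 364 and 300.2 TPM in wild type. Rela, the main activating subunit, had 287 TPM in knockout and 252 TPM in wild type. Relb had 182 TPM in knockout and 127 TPM in wild type, and Rel, the least abundant subunit, had 25.9 TPM in knockout and 17.8 TPM in wild type. The TNF receptor gene Tnfrsf1a (456 TPM in knockout, 452 TPM in wild type) stood far above the second TNF receptor gene Tnfrsf1b (4.68 and 3.99 TPM in knockout and wild type) and above the interleukin-1 receptor gene Il1r1 (8.36 and 10.1 TPM in knockout and wild type). At the low end were Il1a, Il1b, Csf2 and Il18, all below 5 TPM in both groups.

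**Figure D1:**
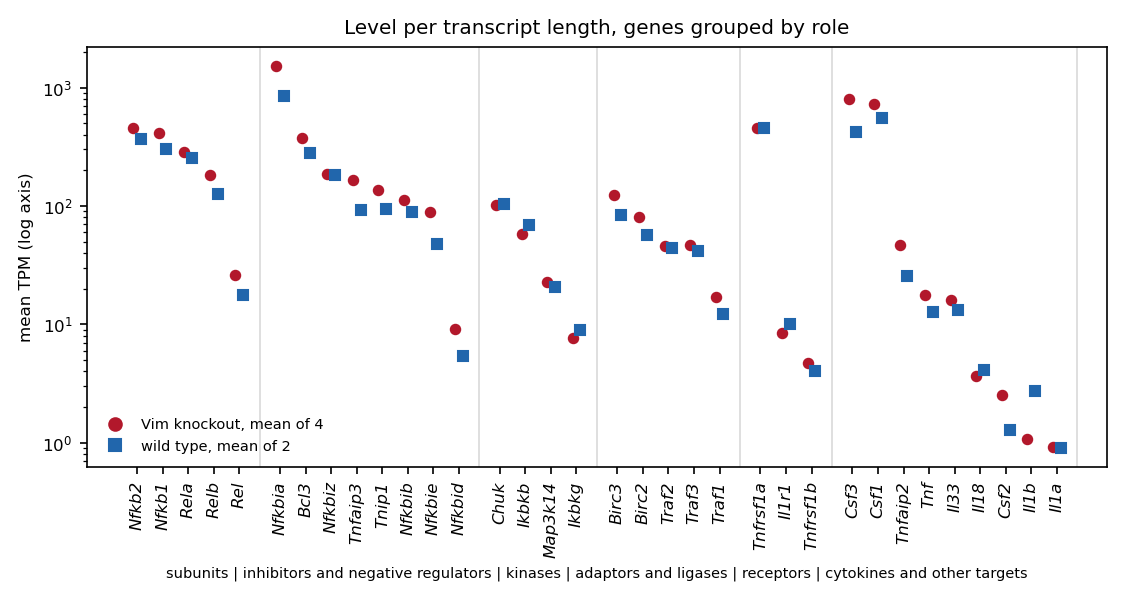
Mean level per gene length (TPM, log axis) of the 34 NF-kB pathway genes, grouped by role, with knockout means as circles (n = 4) and wild-type means as squares (n = 2). Nfkbia is highest, at 1518 TPM in knockout and 842 TPM in wild type, and Il1a is lowest, at 0.92 TPM in knockout and 0.908 TPM in wild type.

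With genotype as the only term, 28 of the 34 genes had a log2 fold change above 0 (82.4%), against 47.6% of all tested genes. Their median log2 fold change was 0.35, against -0.01 over all tested genes, and it changed to 0.19 with wild type 1 left out and to 0.66 with wild type 2 left out. No gene of the 34 was called by edgeR's quasi-likelihood test at an adjusted p under 0.05, in a comparison that called 0.079% of all tested genes. At an unadjusted p under 0.05, 8 of the 34 were higher and 1 was lower in knockout, against 8.57% of all tested genes in either direction. DESeq2 called 1 of the 34 (Nfkbia, higher) and 1.88% of all tested genes. With limma-voom 0 of the 34 and 0.0718% of all tested genes were called.

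With the experiment as a block, 6 of the 34 genes were called, all higher in knockout: Nfkbia, Nfkbie, Tnfaip3, Relb, Birc3 and Csf3. The same fit called 1.56% of all tested genes, and 1.12% as higher. The median log2 fold change of the 34 was 0.38, against -0.01 over all tested genes, and 28 of 34 were again above 0. At an unadjusted p under 0.05, 17 were higher and 2 were lower, against 13.6% of all tested genes in either direction. DESeq2 with the same block called 12 of the 34, all higher: these 6 and Nfkb1, Nfkb2, Rel, Bcl3, Tnip1 and Tnfaip2. It called 4.85% of all tested genes. The number of calls changed with the knockout library left out, among the 34 and among all tested genes. In the block fit without knockout 4 only Tnfaip3 and Csf3 were called, against 0.476% of all tested genes. Without knockout 3 those and Nfkbia and Nfkbie were called, against 1%. Without knockout 2 or knockout 1 the count was 7 or 11, against 1.79% or 6.84%. Leaving out a wild-type library left 1, so calls of that fit cannot tell a smaller difference from a less precise estimate. The log2 fold changes of the 6 genes ran from 0.50 to 0.88 when wild type 1 was dropped and from 0.46 to 1.07 when wild type 2 was dropped. With the block, the former rest on experiment 2 alone and the latter on experiment 1 alone. Another fit used the title number as a block and kept knockout 1 and 2 as the only knockout libraries. The log2 fold changes of the 6 genes were then between 0.19 and 0.68. None of the 6 was called, in a fit that called 0.0875% of all tested genes. By the date code this block sets knockout 2 of experiment 1 against wild type 2 of experiment 2, so its log2 fold changes mix genotype with experiment.

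**Figure D2:**
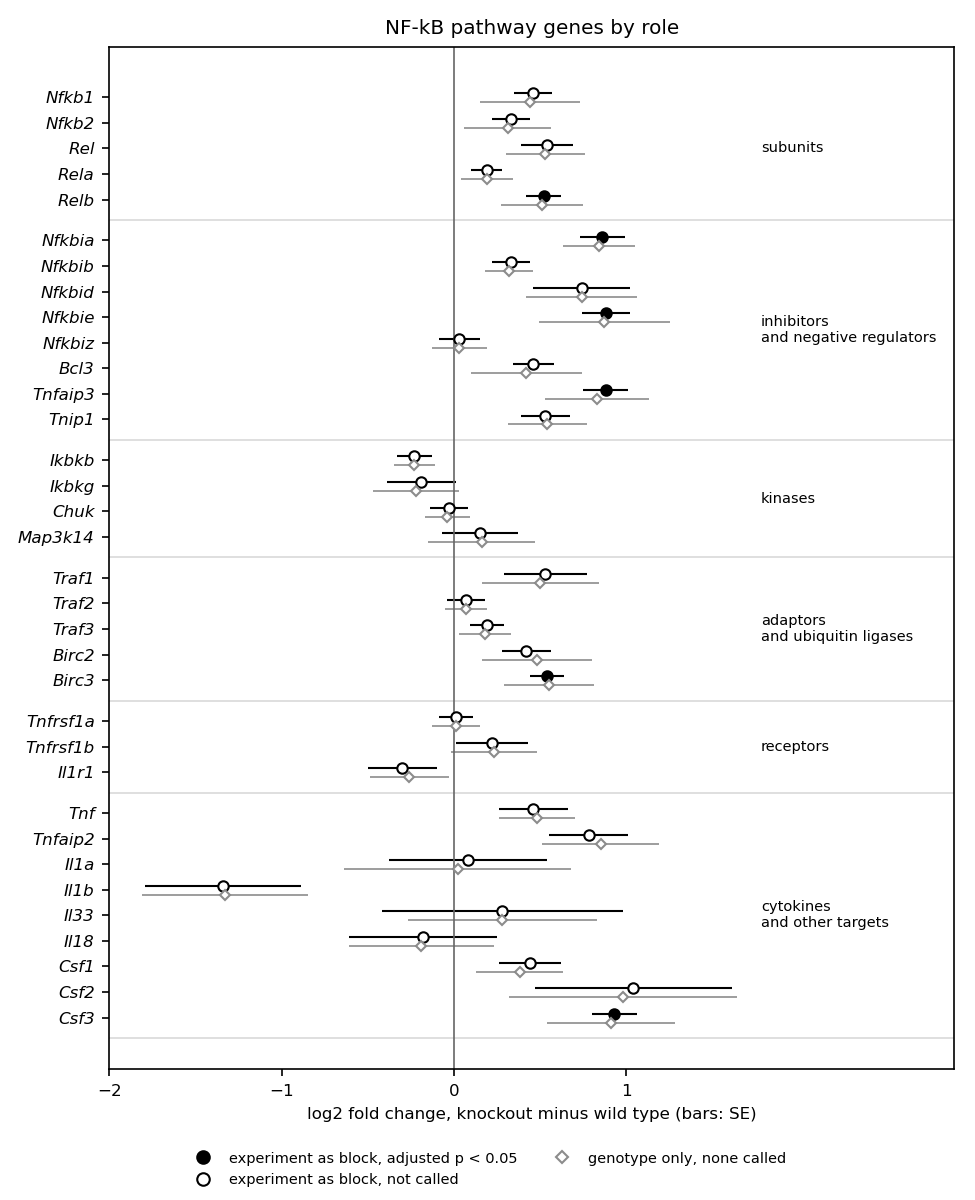
Log2 fold change (knockout minus wild type, with SE) of each of the 34 genes by role, with the experiment as a block (circles, filled where the adjusted p is under 0.05) and with genotype as the only term (grey diamonds, none called). The 6 filled circles lie between 0.52 and 0.93, and the circles of the 4 kinases lie between -0.23 and 0.15.

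The wild-type library of experiment 1 was the lowest of all 6 for 20 of the 34 genes, which was so for 19.9% of all tested genes. Knockout 4 was the highest for 18 of the 34, against 14.4% of all tested genes. In each experiment the knockout libraries were therefore set against their own wild-type library. In experiment 1 both knockout libraries were above wild type 1 for 22 of the 34 genes, against 31% of all tested genes. In experiment 2 both were above wild type 2 for 24 of the 34, against 37.4%. Both held for 17 of the 34, against 15.6%, and both knockout libraries were below their own wild type in both experiments for 2 of the 34 (Ikbkb and Il1b), against 16.6%. All 4 knockout libraries lay above both wild-type libraries for 3 genes (Nfkbia, Nfkbid and Tnfaip3), a share of 8.82% that is near the 7.6% of all tested genes. All 4 lay below both wild-type libraries for Ikbkb and Il1b, a share of 5.88% against 8.57% of all tested genes.

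**Figure D3:**
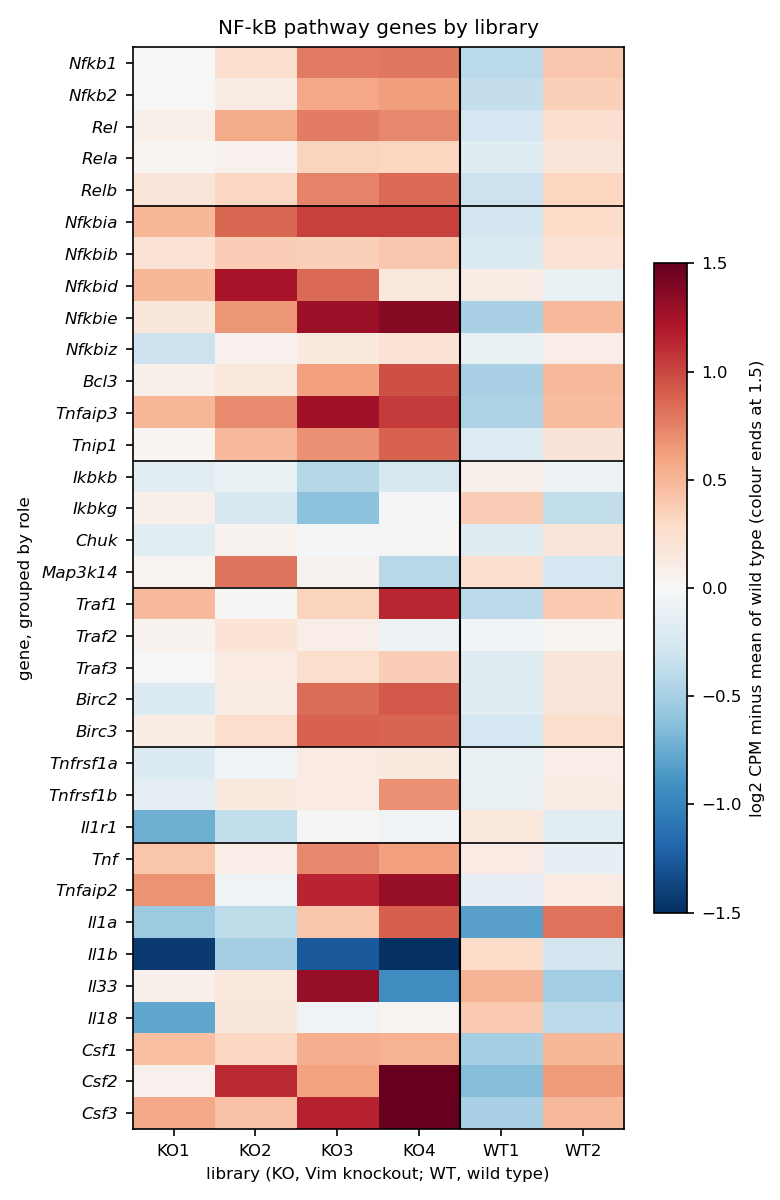
Log2 CPM of each gene in each library minus the mean of the wild-type libraries, with knockout libraries left of wild-type libraries and genes grouped by role (red, higher; blue, lower). Knockout 3 and 4 are the reddest columns, with median differences of 0.56 and 0.62, against 0.06 and 0.15 in knockout 1 and 2 and -0.18 and 0.18 in wild type 1 and 2.

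Of the 5 subunit genes, all had a log2 fold change above 0, and Relb was called with the block. Relb encodes the subunit that acts mainly in the non-canonical branch of the pathway. Relb (chromosome 7, 19606222 to 19629438, mm10, minus strand) had 108, 119, 160 and 172 CPM in knockout 1 to 4, against 76.6 and 119 CPM in wild type 1 and 2. Each knockout library was above the wild type of its own experiment, but knockout 1 and 2 did not exceed wild type 2, so the groups overlapped. Relb rose by 0.52 (log2) with the block (SE 0.10, edgeR adjusted p = 0.0335), and the log2 fold change was 0.51 by genotype alone (SE 0.24, edgeR adjusted p = 0.625). The log2 difference of Relb was alike in both experiments, 0.48 in experiment 2 and 0.56 in experiment 1.

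Nfkb1, which encodes the precursor of the DNA-binding partner of Rela, had 417, 499, 719 and 726 CPM in knockout 1 to 4, against 316 and 552 CPM in wild type 1 and 2. The groups overlapped, with experiment 2 libraries above experiment 1 libraries whatever their genotype. Its log2 fold change of 0.46 with the block missed the threshold (SE 0.11, edgeR adjusted p = 0.0809), and by genotype alone it was 0.44 (SE 0.29, edgeR adjusted p = 0.797). Nfkb2, the precursor that pairs with Relb, showed the same order of libraries: 406, 442, 609 and 629 CPM in knockout 1 to 4, against 317 and 525 CPM in wild type 1 and 2. Its log2 fold change was 0.33 with the block (SE 0.11, edgeR adjusted p = 0.174) and 0.31 by genotype alone (SE 0.25, edgeR adjusted p = 0.867). Rel and Rela had block log2 fold changes of 0.54 and 0.19 and were not called by edgeR (adjusted p = 0.121 and 0.423), while DESeq2 with the block called Rel (adjusted p = 0.0408).

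Of the 8 inhibitors and negative regulators, all had a log2 fold change above 0 in both fits, and 3 were called with the block: Nfkbia, Nfkbie and Tnfaip3. The median log2 fold change of the 8 was 0.64 in both fits. Nfkbia encodes the IkB protein that restrains Rela and is rapidly made again after the pathway is switched on. Nfkbia (chromosome 12, 55489409 to 55492647, mm10, minus strand) had 647, 833, 929 and 931 CPM in knockout 1 to 4, against 379 and 552 CPM in wild type 1 and 2. The lowest knockout library (647 CPM) was above the highest wild-type library (552 CPM), so the groups did not overlap. Nfkbia rose by 0.86 (log2) with the block (SE 0.13, edgeR adjusted p = 0.0139), a fold of 1.81, while by genotype alone the log2 fold change of 0.84 was not called (SE 0.21, edgeR adjusted p = 0.269). Its log2 difference was 0.75 in experiment 2 and 0.97 in experiment 1.

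Tnfaip3 encodes a ubiquitin-editing enzyme that shuts off signalling from the TNF receptor complex. Tnfaip3 (chromosome 10, 19000910 to 19015410, mm10, minus strand) had 199, 230, 339 and 292 CPM in knockout 1 to 4, against 102 and 195 CPM in wild type 1 and 2. The groups did not overlap, although knockout 1 (199 CPM) was close to wild type 2 (195 CPM). Tnfaip3 rose by 0.88 (log2) with the block (SE 0.13, edgeR adjusted p = 0.0119), against a log2 fold change of 0.83 by genotype alone (SE 0.30, edgeR adjusted p = 0.474). The log2 difference was 0.69 in experiment 2 and 1.07 in experiment 1, and the test of the difference between these values gave an unadjusted p of 0.132 (edgeR).

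Nfkbie encodes another IkB protein of the cytoplasm. Nfkbie (chromosome 17, 45555716 to 45563168, mm10, plus strand) had 43.3, 60.7, 93.5 and 100.4 CPM in knockout 1 to 4, against 27.4 and 53.9 CPM in wild type 1 and 2. Only knockout 1 fell short of wild type 2, and both knockout libraries of each experiment exceeded their own wild-type library. Nfkbie rose by 0.88 (log2) with the block (SE 0.14, edgeR adjusted p = 0.0161), against a log2 fold change of 0.87 by genotype alone (SE 0.38, edgeR adjusted p = 0.587).

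The promoters of these 3 inhibitors are shown because this role held 3 of the 6 calls, and they were searched for kappa-B motifs, the short DNA sequences that NF-kB dimers bind. Each line gives the 250 bases before the gene's start from RefSeq (GRCm38.p6), 5′ to 3′ in the direction of the gene, with matches to the kappa-B consensus on either strand in capitals. The windows are chr12:55492648-55492897 (minus strand) for Nfkbia, chr17:45555450-45555699 (plus strand) for Nfkbie and chr10:19015411-19015660 (minus strand) for Tnfaip3.
Nfkbia: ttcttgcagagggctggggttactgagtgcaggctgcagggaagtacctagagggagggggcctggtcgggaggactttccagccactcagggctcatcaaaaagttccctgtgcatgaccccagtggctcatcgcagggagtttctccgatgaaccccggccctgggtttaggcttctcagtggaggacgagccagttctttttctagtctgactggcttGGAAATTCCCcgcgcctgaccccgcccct
Nfkbie: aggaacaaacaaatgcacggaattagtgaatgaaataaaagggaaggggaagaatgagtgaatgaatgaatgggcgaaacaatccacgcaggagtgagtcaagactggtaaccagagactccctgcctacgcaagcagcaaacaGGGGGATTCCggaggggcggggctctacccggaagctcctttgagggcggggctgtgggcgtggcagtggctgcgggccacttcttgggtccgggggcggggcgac
Tnfaip3: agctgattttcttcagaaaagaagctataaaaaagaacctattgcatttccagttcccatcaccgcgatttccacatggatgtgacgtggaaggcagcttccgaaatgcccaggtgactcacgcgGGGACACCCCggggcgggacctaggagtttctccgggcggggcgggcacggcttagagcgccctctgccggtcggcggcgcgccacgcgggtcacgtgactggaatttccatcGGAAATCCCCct
The match in Nfkbia, GGAAATTCCC, begins 29 bases before the start. The match in Nfkbie, GGGGGATTCC, begins 106 bases before it. Tnfaip3 has a match at 125 bases, GGGACACCCC, and another at 12 bases, GGAAATCCCC. Over all members, 29 of 34 matched an entry of the RefSeq promoter table, and 9 of these 29 held the kappa-B consensus of 10 bases: Nfkb2, Rel, Nfkbia, Nfkbie, Tnfaip3, Tnip1, Traf3, Tnfaip2 and Csf1. The consensus was GGGRNNYYCC, where R is A or G, Y is C or T and N is any base. It was present in 7.25% of all 32851 windows of the same length. Of the other called genes, Birc3 held no match in its window, and Relb and Csf3 had no window to search. A match is a description of these letters and shows neither a bound site nor a cause.

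**Figure D4:**
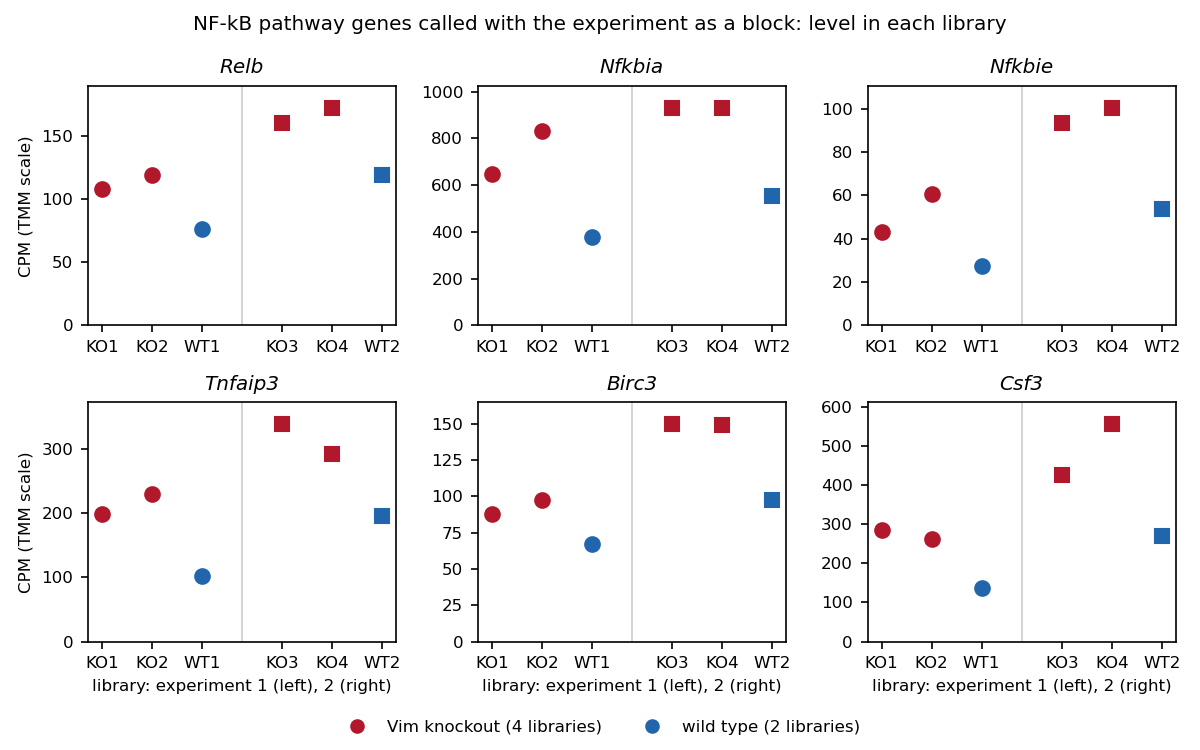
CPM of the 6 genes called with the experiment as a block, in each library, with knockout libraries (red) left of the wild-type library (blue) within experiment 1 (circles) and experiment 2 (squares). Every knockout point is above the wild-type point of its own experiment.

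The remaining negative regulators were not called for genotype by edgeR, while DESeq2 with the block called Bcl3 (adjusted p = 0.0209) and Tnip1 (adjusted p = 0.012). Bcl3, a nuclear IkB-like protein that can also coactivate, had 180.5, 190.3, 263 and 334 CPM in knockout 1 to 4, against 122 and 240.1 CPM in wild type 1 and 2. Its groups overlapped, and its log2 fold change was 0.46 with the block (SE 0.12, edgeR adjusted p = 0.111) and 0.42 by genotype alone (SE 0.32, edgeR adjusted p = 0.852). Tnip1, a partner of the Tnfaip3 protein, had a block log2 fold change of 0.53 (edgeR adjusted p = 0.0929). Nfkbid, another nuclear IkB protein, was low, with 4.21 to 9.01 CPM in knockout and 3.5 to 4.08 CPM in wild-type libraries, and its log2 fold change of 0.74 was not called (edgeR adjusted p = 0.269). Nfkbib had a log2 fold change of 0.33, and Nfkbiz stood at 253 ± 37.9 CPM in knockout (SD, n = 4) and 247 ± 23.8 CPM in wild type (SD, n = 2), with a log2 fold change of 0.03.

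None of the 4 kinase genes was called for genotype, and their median log2 fold change was -0.11 with the block. Ikbkb, which encodes the catalytic IKK subunit of the canonical branch, had 96.3, 100, 80.1 and 91 CPM in knockout 1 to 4, against 114 and 102 CPM in wild type 1 and 2. All 4 knockout libraries were below both wild-type libraries, by a small margin, and the log2 fold change was -0.23 with the block (SE 0.10, edgeR adjusted p = 0.319) and -0.23 by genotype alone (SE 0.12, edgeR adjusted p = 0.694). Ikbkg, the scaffold subunit of the complex, had 22.9, 18.3, 14.1 and 21.4 CPM in knockout 1 to 4, against 28 and 16.7 CPM in wild type 1 and 2. Its groups overlapped, and its log2 fold change was -0.19 with the block (SE 0.20, edgeR adjusted p = 0.772) and -0.22 by genotype alone (SE 0.25, edgeR adjusted p = 0.93). Chuk, the other catalytic subunit, had 124 ± 7.6 CPM in knockout (SD, n = 4) and 127 ± 22.7 CPM in wild type (SD, n = 2). Map3k14, the kinase that starts the non-canonical branch, ranged from 21.6 to 50.7 CPM in knockout and from 24.3 to 34.6 CPM in wild-type libraries, with a block log2 fold change of 0.15.

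Among the 5 adaptors and ubiquitin ligases, Birc3 was called with the block. Birc2 and Birc3 encode the cellular IAP proteins, ubiquitin ligases that work at the TNF receptor and restrain Map3k14. Birc3 (chromosome 9, 7848701 to 7873170, mm10, minus strand) had 87.7, 97.3, 149.8 and 149 CPM in knockout 1 to 4, against 67.4 and 97.4 CPM in wild type 1 and 2. The groups overlapped, while each knockout library was above its own experiment's wild type. Birc3 rose by 0.54 (log2) with the block (SE 0.10, edgeR adjusted p = 0.032), against a log2 fold change of 0.55 by genotype alone (SE 0.26, edgeR adjusted p = 0.627). Birc2, its neighbour on chromosome 9, had 54.1, 67.3, 111 and 118 CPM in knockout 1 to 4, against 54.6 and 70.7 CPM in wild type 1 and 2. Knockout 3 and 4 stood above all other libraries, and the log2 fold change was 0.42 with the block (SE 0.14, edgeR adjusted p = 0.213) and 0.48 by genotype alone (SE 0.32, edgeR adjusted p = 0.791). The adaptor genes Traf1, Traf2 and Traf3, whose proteins link TNF receptors to these ligases, had block log2 fold changes of 0.53, 0.07 and 0.19 and were not called.

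The 3 receptor genes were not called for genotype. Il1r1 had 10.5, 13.6, 17.7 and 16.9 CPM in knockout 1 to 4, against 19.5 and 15.7 CPM in wild type 1 and 2. Its groups overlapped, with a log2 fold change of -0.30 with the block (SE 0.20, edgeR adjusted p = 0.594) and -0.26 by genotype alone (SE 0.23, edgeR adjusted p = 0.882). Wild type 1, the highest library for Il1r1, was also the highest for the endothelial, fibroblast and pericyte marker sums (299, 155 and 53.3 CPM), whose part in the value was not tested. Tnfrsf1b had 6.16, 7.51, 7.42 and 11 CPM in knockout 1 to 4, against 6.3 and 7.35 CPM in wild type 1 and 2, and its log2 fold change was 0.22 with the block (SE 0.21, edgeR adjusted p = 0.747) and 0.23 by genotype alone (SE 0.25, edgeR adjusted p = 0.926). Tnfrsf1a, the receptor gene with by far the most transcript, had 342 ± 38.5 CPM in knockout (SD, n = 4) and 339 ± 32.2 CPM in wild type (SD, n = 2), a log2 fold change of 0.01.

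Of the 9 cytokines and other targets, Csf3 was called with the block, and 7 had a log2 fold change above 0. Csf3 (chromosome 11, 98701313 to 98703629, mm10, plus strand) had 284, 261, 426 and 556 CPM in knockout 1 to 4, against 137 and 269 CPM in wild type 1 and 2. Knockout 2 was below wild type 2, so the groups overlapped, but in each experiment both knockout libraries were above the wild-type library. Csf3 rose by 0.93 (log2) with the block (SE 0.13, edgeR adjusted p = 0.00959), a fold of 1.91, against a log2 fold change of 0.91 by genotype alone (SE 0.37, edgeR adjusted p = 0.544). Tnfaip2, a TNF-induced gene, had 51, 30.7, 70.6 and 79.5 CPM in knockout 1 to 4, against 29.5 and 34.8 CPM in wild type 1 and 2. Knockout 2 overlapped the wild-type range, and the log2 fold change was 0.78 with the block (SE 0.23, edgeR adjusted p = 0.181) and 0.85 by genotype alone (SE 0.34, edgeR adjusted p = 0.541).

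The other cytokine genes were not called for genotype. Tnf, which encodes the founding ligand of the TNF family, ranged from 7.59 to 11.7 CPM in knockout and from 6.5 to 7.66 CPM in wild-type libraries, with a block log2 fold change of 0.46. Il33 ranged from 5.82 to 27.9 CPM in knockout and from 7.85 to 16 CPM in wild-type libraries, with a block log2 fold change of 0.28 and an SE of 0.70. Within experiment 2 its knockout libraries lay on opposite sides of wild type 2. Il1b, which encodes interleukin-1 beta, had 13, 21, 14 and 7 counts in knockout 1 to 4, against 49 and 26 counts in wild type 1 and 2. All 4 knockout libraries were below both wild-type libraries, and its log2 fold change of -1.34 was not called (edgeR adjusted p = 0.199). Leukocytes express Il1b. Of the 12 leukocyte markers 5 passed the filter, and 2 of these 5 had a log2 fold change above 0 with the block (median -0.33). Ptprc, a leukocyte marker that did not pass the filter, had 4, 1, 0 and 2 counts in knockout 1 to 4, against 15 and 0 in wild type 1 and 2. The part of leukocytes in the Il1b value was not tested. Il1a, Il18 and Csf2 rested on 8 to 52 counts a library and had block log2 fold changes of 0.08, -0.18 and 1.04, with SEs of 0.46, 0.43 and 0.57.

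Within experiment 1 and within experiment 2 taken alone, none of the 34 genes was called, in fits that called 0.23% and 0.0287% of all tested genes. Each of these contrasts has 1 wild-type library, which is assumed to vary like the knockout libraries, and 2 residual degrees of freedom. With 1 knockout library left out, 1 residual degree of freedom was left and calls rose across all tested genes. Calls of those fits are therefore not read as a result about the 34. At an unadjusted p under 0.05, 11 of the 34 were higher in experiment 2 and 0 lower, against 9.7% of all tested genes, and 12 were higher and 1 lower in experiment 1, against 9.32%. The log2 difference was above 0 in both experiments for 23 of the 34 genes, against 29% of all tested genes, and below 0 in both for 2 of the 34, against 30.5%. No gene of the 34 differed in its response between the experiments at an adjusted p under 0.05, in a test that called 0% of all tested genes. At an unadjusted p under 0.05, 2 of the 34 differed (edgeR), against 4.21% of all tested genes. One was Csf1, with a log2 difference of 0.04 in experiment 2 and 0.88 in experiment 1 (edgeR unadjusted p = 0.00307, adjusted p = 0.998). Csf1 had 1112, 1006, 1183 and 1168 CPM in knockout 1 to 4, against 575 and 1145 CPM in wild type 1 and 2. Wild type 1 alone was low, while the other 5 libraries lay between 1006 and 1183 CPM. The other was Il1r1, with a log2 difference of 0.14 in experiment 2 and -0.70 in experiment 1 (edgeR unadjusted p = 0.0291).

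**Figure D5:**
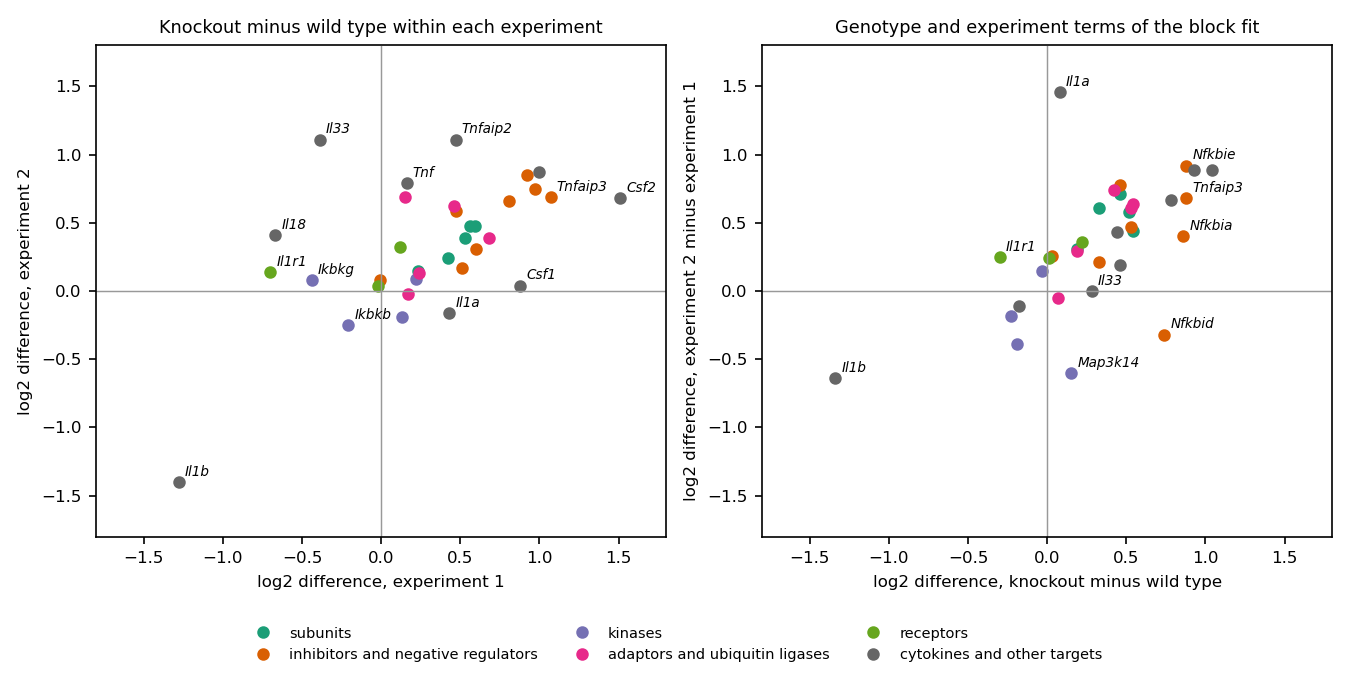
Left, the log2 difference (knockout minus wild type) of each of the 34 genes in experiment 2 (vertical axis) against experiment 1 (horizontal axis). Right, the difference between experiment 2 and experiment 1 (vertical axis) against that between knockout and wild type (horizontal axis) in the fit with both terms, with colours for roles. In the left panel 23 genes lie in the upper right of the plot, and Csf1 stands apart at 0.04 in experiment 2 and 0.88 in experiment 1.

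Some of the 34 genes also differed between the experiments. Across genotypes, 9 were higher in experiment 2 than in experiment 1 and 0 were lower (edgeR, adjusted p under 0.05), in a comparison that called 6.43% of all tested genes, and 3.39% as higher. They were Nfkb1, Nfkb2, Relb, Nfkbie, Bcl3, Tnfaip3, Birc2, Birc3 and Csf3, and so included 5 of the 6 called for genotype. The largest of these differences were 0.92 for Nfkbie (SE 0.13, edgeR adjusted p = 0.00567), 0.89 for Csf3 (SE 0.12, edgeR adjusted p = 0.005) and 0.78 for Bcl3 (SE 0.12, edgeR adjusted p = 0.00698), on the log2 scale. The others were 0.74 for Birc2, 0.71 for Nfkb1, 0.68 for Tnfaip3, 0.64 for Birc3, 0.61 for Nfkb2 and 0.58 for Relb, with edgeR adjusted p from 0.00619 to 0.014. Nfkbia was the called inhibitor that did not pass here, with a difference of 0.40 (SE 0.12, edgeR adjusted p = 0.0765). All experiment 2 libraries were above all experiment 1 libraries for 12 of the 34, against 12.6% of all tested genes. Without knockout 4 the experiment comparison called 3 of the 34. Its calls over all tested genes also changed with the library left out, so that count is not read as a result about the 34. Leaving out a wild-type library left 1, so whether the calls hold without it cannot be judged.

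A longer list of 83 other pathway genes was read in the same fits, and 77 of the 82 present in the files were tested. With the block, 4 of the 77 were higher and 1 was lower, in a fit that called 1.56% of all tested genes. Above 0 were 42 of the 77, with a median log2 fold change of 0.02, against 48.8% and -0.01 over all tested genes. By genotype alone 0 of the 77 were higher and 1 was lower, in a fit that called 0.079% of all tested genes. Cxcl2, a neutrophil chemokine gene, had 72, 62.5, 186 and 149.9 CPM in knockout 1 to 4, against 28.6 and 78.1 CPM in wild type 1 and 2. Within each experiment the knockout libraries were the higher ones, and Cxcl2 rose by 1.17 (log2) with the block (SE 0.12, edgeR adjusted p = 0.00254). Lif, a cytokine gene of the interleukin-6 family, rose by 0.71 with the block (SE 0.11, edgeR adjusted p = 0.0155). Malt1, a protease and scaffold upstream of IKK, rose by 0.62 (SE 0.13, edgeR adjusted p = 0.0487), and Il17rc, a subunit of the interleukin-17 receptor, by 0.58 (SE 0.12, edgeR adjusted p = 0.0415). Sele, the E-selectin gene of endothelium, had 7.95, 12, 10.4 and 10.7 CPM in knockout 1 to 4, against 34.9 and 29 CPM in wild type 1 and 2. Sele fell by 1.64 in log2 terms (SE 0.17, edgeR adjusted p = 0.00248 with the block and 0.0218 by genotype alone). All 14 endothelial markers were also below 0, with a median log2 fold change of -1.77 with the block. They summed to 69.6, 94.4, 86.3 and 72.2 CPM in knockout 1 to 4, against 299 and 113 CPM in wild type 1 and 2. Their part in the Sele value was not tested. Leaving out single libraries in the block fit, Sele and Cxcl2 stayed called without each knockout library, while Lif, Malt1 and Il17rc did not. Leaving out a wild-type library left 1, so whether the calls hold without it cannot be judged. Without wild type 1 the log2 fold changes were -1.44 for Sele and 1.12 for Cxcl2, and without wild type 2 they were -1.81 and 1.24. With the block, the former rest on experiment 2 alone and the latter on experiment 1 alone. By genotype alone the Sele call was lost without knockout 2, 3 or 4, with edgeR adjusted p from 0.0743 to 0.111. Tested on this list were 36 receptors and adaptors, 4 kinases, 15 negative regulators and 22 targets, of which the block fit called 2, 0, 0 and 3.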

How the data were processed

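Messenger RNA of sorted basal cells was sequenced in 6 libraries. The authors deposited unscaled counts of reads for each gene, made with featureCounts 1.5.1 in the reverse-stranded setting (option 2) on mm10, per the file headers. STAR 2.5.2b, Subread 1.5.1 and bcl2fastq 2.17 are named in the submitters' processing notes. Per the labels, the mRNA kit kept strand, and the headers show no option for multi-mapped reads. No member shares exon positions on its strand with another gene.

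CPM are counts per TMM-scaled library. The counts were compared with edgeR 4.0.16 (R 4.3.3; filterByExpr, TMM, robust quasi-likelihood, 2-sided), with Benjamini-Hochberg adjustment over all 13925 tested genes and a threshold of 0.05. The filter set 9412 genes aside. Genotype was the only term of the planned model. Other fits added the experiment as a block or gave each genotype and experiment its own mean. TPM were computed from the gene lengths in the files, and log2 CPM used a prior count of 2. DESeq2 1.42.0 and voom from limma 3.58.1 were alternatives, as were other size factors, filters and thresholds and leaving out each library. The test was checked on simulated counts.

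The labels do not assign samples to the 2 experiments, so the day code was used as the block. Each day code holds different pools of mice, so the day and the animals cannot be told apart. Deviations from group means correlated across genes between knockout and wild-type libraries of one experiment (r = 0.32, 0.29, 0.25 and 0.41) and ran between -0.41 and -0.25 for libraries of different experiments; having only 2 wild-type libraries makes these values mirror images. Pairing was therefore taken from the experiment and not from title numbers. Nothing states that the pools of one group came from separate litters, so p-values measure the spread between these pools.

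The members and gene lists were chosen with earlier results of these data known, and no list was tested as a set. Values per library, with SE and adjusted p, were given for members called in any edgeR fit of all 6 libraries at this threshold and for the 2 members of each role with the smallest p in the block fit. Other members were given by level and log2 fold change, and of the other pathway genes up to 6 called in the block fit per direction. Values per library of Csf1 and Il1b were added after they were seen.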

Additional observations from a re-analysis of the deposited data

How the results depend on the processing

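By genotype alone, 0 of the 34 members were called with other size factors, filters and thresholds, with voom and without any single library. All tested genes called numbered 11, 262 with DESeq2 (1 member) and 3 to 15 with a library left out. With the experiment as a block, 217 genes were called (6 members, 5 other pathway genes), 231 with RLE size factors (6 members), 230 with library sizes only (6 members), 481 at an adjusted p under 0.10 (8 members) and 676 with DESeq2 (12 members). With the block and a library left out, 940, 248, 138 and 66 genes (11, 7, 4 and 2 members) were called without knockout 1 to 4 in turn, and 4 and 34 (0 members) without wild type 1 and 2, and other pathway genes called by genotype alone numbered 0 to 1. The experiment comparison called 895 genes and 9 members, and 38 to 1838 genes and 0 to 12 members with a library left out. Without 1 knockout library, 1 residual degree of freedom was left and the contrasts by experiment called 130 to 1412 genes (2 to 14 members) in experiment 1, 51 to 1087 (0 to 11 members) in experiment 2 and 3 to 371 (0 to 2 members) for the difference. Using the title number as a block, which also leaves out knockout 3 and 4, called 12 genes and 0 members, with a member median of 0.13. By the day code this block sets knockout 2 of experiment 1 against wild type 2 of experiment 2. That fit reversed the log2 fold changes of Nfkbiz (-0.13), Birc2 (-0.04), Tnfrsf1a (-0.12) and Il1a (-0.56). With libraries left out, log2 fold changes of uncalled members changed sign. By genotype alone they ranged from -0.04 to 0.15 for Nfkbiz, -0.06 to 0.11 for Tnfrsf1a, -0.64 to 1.20 for Il1a, -0.19 to 0.16 for Chuk, -0.54 to 0.31 for Il18, -0.10 to 0.46 for Map3k14, -0.25 to 0.91 for Il33, -0.54 to 0.21 for Ikbkg and -0.02 to 0.96 for Csf1. With the block the reversed values were -0.03 and -0.01 for Nfkbiz, -0.01 and -0.02 for Tnfrsf1a, -0.02 and -0.14 for Il1a, 0.01 and 0.14 for Chuk, 0.13 and 0.43 for Il18, -0.03 for Map3k14, -0.41 and -0.39 for Il33, 0.10 for Ikbkg, -0.01 for Traf2 and 0.16 for Il1r1. The cause was not tested. Of the 6 called genes, Tnfaip3 and Csf3 were called without each knockout library in turn. The alternatives with the looser threshold, other size factors under the block, and the left-out libraries of the experiment contrasts were chosen after seeing the data. Il1a, Il1b, Il18 and Csf2 are limited by depth.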

Other observations

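The comparison of experiment 2 with experiment 1 called 6.43% of all tested genes (edgeR, adjusted p under 0.05). Among the 77 other pathway genes tested, it called 9 as higher and 5 as lower in experiment 2. The higher ones included the chemokine genes Cxcl2 and Cxcl1, with log2 differences of 1.36 and 0.60, and Ptgs2, the inducible cyclooxygenase gene, with 1.05. The lower ones included Edar, the ectodysplasin receptor gene, with -2.04, and Ikbke, an IKK-related kinase gene, with -0.67. Over the same libraries the 22 genes that cell dissociation induces had a median log2 difference of -0.18 between the experiments, with 0 higher and 1 lower.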
